A study of Mus musculus with 63 samples.

Results

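The genes described here are 9 inhibitors of WNT signalling, Notum, Wif1, Dkk2, Dkk3, Sfrp1, Sfrp5, Nkd1, Znrf3 and Rnf43. They were chosen by symbol from the table of normalised counts, in which each has 1 row among 24766 genes, and all 9 passed the filter on low values, which kept genes whose mean was 10 or more. The libraries are bulk RNA sequencing of small intestinal tumours from 2 mice, 1 female and 1 male, so mouse and sex cannot be told apart. Both mice were Villin-creERT2;Apc fl/+;R26R-Confetti on a C57BL/6 background, were at least 8 weeks old, and received 4 mg of tamoxifen and then, 10 days later, 200 mg per kg of the mutagen ENU. Villin-creERT2 acts in the intestinal epithelium, where tamoxifen removed 1 Apc allele and switched on the multicolour Confetti reporter. All libraries share this genotype and treatment, and no normal mucosa was compared. Heterotypic tumours held more than 1 Confetti colour, or 1 colour beside unlabelled glands. In 20 of them, 10 per mouse, the major and the minor clone were sequenced apart. The major clone made up more of the tumour and the minor clone less of it. A further 23 tumours, 10 female and 13 male, were sequenced undivided, 3 more than the 20 monoclonal tumours of the design text. The undivided tumours are numbered 1 to 10 in each mouse, with male tumours 15, 17 and 18 besides, and the Sfrp5 differences, whose direction changes without these 3, are given with and without them. Tumours of 1 mouse are not separate animals, so the p-values below measure the spread between tumours within 2 mice.

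WNT ligands bind Frizzled receptors and LRP co-receptors and stabilise beta-catenin, which with TCF/LEF factors switches on target genes and keeps stem cells at the base of intestinal crypts. APC belongs to the complex that degrades beta-catenin, and its loss drives the pathway downstream of the receptors. Several inhibitors are themselves targets of the pathway and act back on it or on neighbouring cells. Notum is a secreted enzyme that removes the lipid from WNT ligands. Wif1, Sfrp1 and Sfrp5 are secreted proteins that bind WNT ligands, Dkk2 binds the LRP co-receptors, and Dkk3 is a divergent relative of Dkk2 whose action on WNT is less settled. Nkd1 acts inside the cell on Dishevelled. Znrf3 and Rnf43 are ubiquitin ligases in the cell membrane that remove Frizzled receptors.

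The 9 genes lie on 6 chromosomes of GRCm39, and 3 of them are on chromosome 11. In Gencode release M39, Notum spans 120541446 to 120552019 on the minus strand of chromosome 11. Znrf3 spans 5226324 to 5394939 on the minus strand and Rnf43 spans 87553548 to 87626377 on the plus strand of the same chromosome. Nkd1 (89247890 to 89324577) and Sfrp1 (23901263 to 23939648) are on the plus strand of chromosome 8. Wif1 is on chromosome 10 (120869865 to 120936555, plus), Dkk2 on chromosome 3 (131790336 to 131886065, plus), Dkk3 on chromosome 7 (111712904 to 111758760, minus) and Sfrp5 on chromosome 19 (42186410 to 42190691, minus). All are protein-coding. Exon bases of Notum are shared with antisense transcripts, among them Notumos, which has its own row in the table. The library kit keeps strand, but the strand setting of the counting is not given in the sources used here. The 250 bases before the start of each gene's canonical transcript were searched on both strands for the core bound by TCF/LEF factors (read as CTTTGAA or else CTTTGAT, and likewise CTTTGTA or else CTTTGTT). A core was found for 2 of the 9 genes, Notum and Nkd1, against 13.3% of the 16448 genes with a window and a mean of at least 10. Both matches read CTTTGAT on the sense strand, starting 53 bases before the start of Notum and 26 bases before that of Nkd1. The match is in capitals in the 250 bases before Notum (chr11:120552020-120552269, minus strand of GRCm39) and in 30 bases around the match before Nkd1 (chr8:89247888-89247917, plus strand of GRCm39), a stretch that another transcript of Nkd1 partly covers. They are shown because Notum and Nkd1 had the highest correlation of any pair of members, both in undivided tumours and in clone differences.
Notum: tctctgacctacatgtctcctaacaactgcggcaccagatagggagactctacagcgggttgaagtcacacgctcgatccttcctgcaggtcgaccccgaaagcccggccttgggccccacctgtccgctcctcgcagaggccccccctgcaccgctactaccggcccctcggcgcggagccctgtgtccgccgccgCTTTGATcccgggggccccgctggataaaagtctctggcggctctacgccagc
Nkd1: gtccgcctcgcCTTTGATgggccgctgccg
The letters describe the sequence and do not show that a factor binds there.

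All 9 inhibitors were detected, over a wide range of levels (plot of the levels by group). On counts per kilobase of exon, the scale on which genes can be set beside each other, Notum was the most abundant, with a median of 939 over the 63 libraries. It was followed by Nkd1 with a median of 773 per kilobase and Wif1 with 743 per kilobase. Rnf43, Dkk3 and Znrf3 had medians of 573, 289 and 140 per kilobase. Dkk2 had a median of 48.2 per kilobase, and Sfrp1 and Sfrp5 were lowest at 10.8 and 9.18 per kilobase. The ranges of neighbours in this order overlapped: Notum exceeded Nkd1 in 49 of 63 libraries, Nkd1 exceeded Wif1 in 39, Wif1 exceeded Rnf43 in 35, and Sfrp1 exceeded Sfrp5 in 33. Rnf43 exceeded Dkk3 in 58 libraries. The order of the medians rests on exon lengths of the annotation, not on the transcripts used by each tumour.

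The genes differed in their spread between libraries. On normalised counts, Rnf43 ranged 3.75-fold, from 1717 to 6430. Notum ranged 12.1-fold, from 1220 to 14720, and Znrf3 11.8-fold. Nkd1 ranged 24.7-fold, Dkk3 28.8-fold and Dkk2 102-fold, while Wif1 ranged 154-fold, from 64.5 to 9925, and Sfrp1 260-fold, from 1.22 to 318. Sfrp5 ran from 0, in the minor clone of male tumour 25 and in male undivided tumour 8, to 13489 in male undivided tumour 15. Rnf43 was thus the steadiest member and Sfrp5 the most variable.

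**Figure D1:**
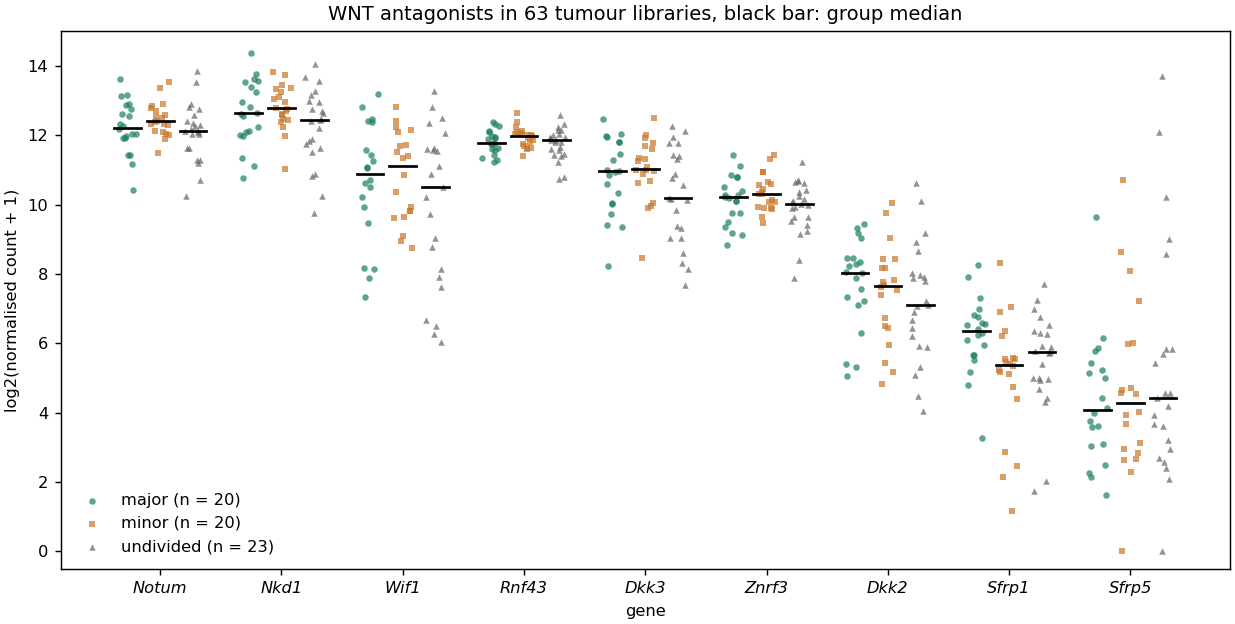
Level of each gene in 63 libraries, as log2 of the normalised count plus 1 (y axis), by gene (x axis, ordered by counts per kilobase), with 1 point per library for 20 major clones, 20 minor clones and 23 undivided tumours and a black bar at each group's median. The groups overlap for every gene, and Wif1 and Sfrp5 are the most widely spread.

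Library sums of normalised counts were 26140227 to 45909885 with a median of 30889255, and the number of reads behind each value is not known. Epithelial markers (7 of 7 in the table, among them Epcam and Vil1) summed to 163944 to 707478 per library, against 446 to 20823 for 7 fibroblast markers and 232 to 2641 for 7 immune markers. Every library held both epithelial and stromal RNA. In bulk tissue, fewer cells of a type and less RNA per cell cannot be told apart.

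The first comparison asked whether the major and the minor clone of a tumour differ in these inhibitors. None of the 9 genes passed the test (limma, paired by tumour, adjusted p under 0.05 over all genes), where 1.14% of the 16428 genes tested did (188). At an unadjusted p under 0.05 lay 1 of the 9, and 22.4% of all genes. The median log2 difference of the members, major minus minor, was -0.18, against 0.01 over all genes, and 7 of the 9 estimates lay below 0. This does not show that the clones were alike: single tumours differed widely, in either direction.

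Notum was 1377 to 12510 in major clones (median 4787) and 2877 to 11798 in minor clones (median 5398). The ranges overlapped almost entirely, and Notum was higher in the major clone in 8 of 20 tumours. The log2 difference was -0.22 ± 0.19 (SE, 20 tumours, limma adjusted p = 0.506). Within single tumours the clones differed by up to 4.31-fold, in female tumour 22, where Notum was 1377 in the major clone, labelled SI20, and 5935 in the minor clone, labelled SI10. Among tumours whose clones share a segment label the largest gap was 2.69-fold, in male tumour 20, and in female tumour 30 it was 12510 in the major and 5096 in the minor clone. Clones differed by more than 2-fold in 6 of 20 tumours, in some towards the major and in others towards the minor clone.

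Wif1 showed the same picture on a larger scale. It was 159 to 9355 in major clones (median 1896) and 427 to 7204 in minor clones (median 2233), which overlap. The clones differed by more than 2-fold in 10 of 20 tumours, and by 20.6-fold in female tumour 22, where Wif1 was 159 in the major and 3297 in the minor clone. In female tumour 28 the order was turned, with 7189 in the major and 498 in the minor clone. The mean log2 difference was -0.18 ± 0.44 (SE, limma adjusted p = 0.850). For Dkk3 the log2 difference was -0.18 ± 0.20 (adjusted p = 0.620), with levels of 302 to 5652 in major and 351 to 5839 in minor clones.

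Among the inhibitors that act inside the cell or on receptors, Nkd1 was higher in the major clone in 10 tumours and lower in 10, with a log2 difference of -0.16 ± 0.19 (SE, limma adjusted p = 0.637). Its levels were 1727 to 21256 in major and 2088 to 14544 in minor clones. Znrf3 was 453 to 2778 in major and 710 to 2765 in minor clones, a log2 difference of -0.21 ± 0.12 (adjusted p = 0.309). Rnf43 was higher in the minor clone in 15 of 20 tumours, yet the log2 difference was -0.14 ± 0.08 (adjusted p = 0.281), and in no tumour did its clones differ by 2-fold. Rnf43 was 2401 to 5391 in major and 2703 to 6430 in minor clones.

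Sfrp1 came closest to the threshold. It was 8.68 to 304 in major clones (median 80.9) and 1.22 to 318 in minor clones (median 40.3). The groups overlapped, but Sfrp1 was higher in the major clone in 15 of 20 tumours. The log2 difference was 1.19 ± 0.30 (SE), a 2.28-fold difference with a 95% interval of 0.57 to 1.81 on the log2 scale (limma unadjusted p = 0.000639, adjusted p = 0.0512). With a pseudocount of 5, a minimum mean of 50, scaling to equal sums or quantile normalization the adjusted p was 0.0404 to 0.0492, and leaving out 1 tumour gave 0.0297 to 0.0915, so the call depends on these choices. Of the tumours left out, female 19, 20, 27, 28 and 29 and male 31 brought it under the threshold, at 0.0297 to 0.0492.

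The Sfrp1 difference was larger in the male mouse than in the female. In the male mouse Sfrp1 was 8.68 to 159 in major and 1.22 to 45.6 in minor clones, higher in the major clone in 10 of 10 tumours, with a mean log2 difference of 1.99 ± 1.24 (SD). In the female mouse it was higher in 5 of 10 tumours, with a mean of 0.39 ± 1.17 (SD). The difference between the mice had an unadjusted p of 0.00491 and an adjusted p of 0.633 (limma). Genes most like Sfrp1 over the 63 libraries were Bgn, Fbln5 and Synpo2, at r = 0.86, 0.84 and 0.82, which code for a matrix proteoglycan, a matrix protein of elastic fibres and an actin-binding protein of muscle.

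The summed fibroblast markers moved in the same direction: 1547 to 20823 in major and 1261 to 18876 in minor clones, higher in the major clone in 8 of 10 male and 4 of 10 female tumours, with mean log2 differences of 0.86 and 0.09. None of the 7 fibroblast markers passed the test, 6 of 7 estimates lay above 0, and no marker of the list had a mean under 10. Summed smooth muscle markers (5 of 5 in the table) were higher in the major clone in 8 male and 6 female tumours. Summed immune markers were higher in the major clone in 9 male and 6 female tumours, with mean log2 differences of 0.75 and 0.02. Summed endothelial markers (4 of 4 in the table) lay the other way, higher in the major clone in 6 of 20 tumours, with a mean log2 difference of -0.39. Taken singly, however, 3 of the 4 endothelial markers had estimates above 0, with a median of 0.38, and 0 were called. The rise was not particular to stromal and immune markers. Summed enteroendocrine, goblet and crypt stem cell markers were higher in the major clone in 17, 14 and 14 of 20 tumours. Their mean log2 differences were 0.84, 0.49 and 0.37, and 1 goblet and 1 enteroendocrine marker passed the test. Summed Paneth cell markers were higher in 12 of 20 tumours, with a mean of 0.26. The part of any of these cells in the Sfrp1 difference was not tested.

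Dkk2 was 32.5 to 693 in major clones (median 262) and 27.5 to 1057 in minor clones (median 200), higher in the major clone in 13 of 20 tumours, with a log2 difference of 0.26 ± 0.29 (SE, limma adjusted p = 0.624). The largest gap was in male tumour 28, at 643 in the major and 60.8 in the minor clone. Sfrp5 was 2.08 to 793 in major clones (median 15.8) and 0 to 1686 in minor clones (median 18.7), a log2 difference of -0.34 ± 0.52 (adjusted p = 0.734). Its clones differed by more than 2-fold in 15 of 20 tumours, and in male tumour 20 it was 4.64 in the major and 272 in the minor clone. Several of these gaps lay between low values, such as 7.51 and 0 in male tumour 25 and 3.42 and 15.2 in male tumour 29. The counting error of such values is not known. Sfrp5 thus differed within tumours without favouring a class, in part at low levels.

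**Figure D2:**
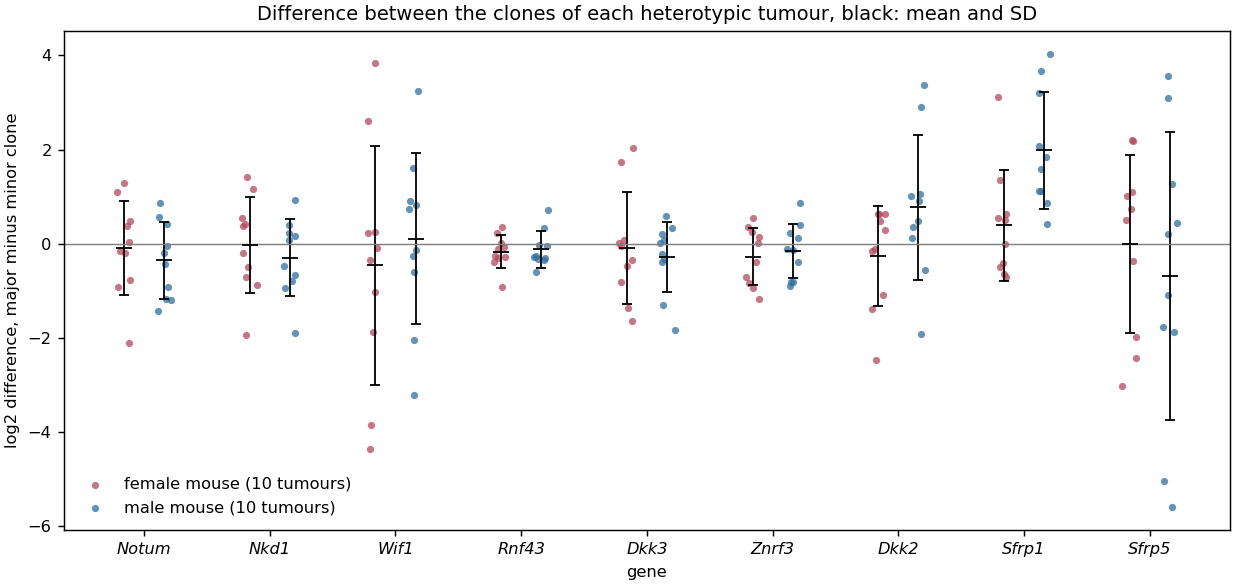
Difference between the clones of each heterotypic tumour, as log2 of major minus minor (y axis), by gene (x axis), with 1 point per tumour (10 female, 10 male) and the mean and SD per mouse in black. Points lie on both sides of 0 for all genes except Sfrp1 in the male mouse, where all 10 tumours lie above 0.

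The clone difference was then compared between mice and between segments of the intestine. No gene passed for male against female tumours (0% of 16428 genes called, 1257 at an unadjusted p under 0.05, by limma), and Sfrp1 was the only member with an unadjusted p under 0.05. No gene passed for tumours of the segment labelled SI20 (10 tumours) against SI10 (7 tumours) either (0% of 16436 genes called, 667 at an unadjusted p under 0.05). Female tumours 29 and 30, labelled SI30, and female tumour 22, whose clones carry different labels, were left out of the segment comparisons of heterotypic tumours. They stayed in the comparisons of clone classes. All 9 members had a larger major minus minor difference in SI20 tumours, by 0.06 for Nkd1 to 1.51 for Sfrp5 on the log2 scale, each with an unadjusted p above 0.05. The median of the members was 0.40, against -0.01 over all genes. The direction was not particular to them. Of 25 WNT target genes, some of them members, 20 lay above 0, and of 14 other antagonists and feedback inhibitors 7. So did 7 of 7 fibroblast, 5 of 5 smooth muscle and 5 of 5 immune markers, with 5 of 7 epithelial and 0 of 3 enteroendocrine markers.

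The second question was whether the clones of a tumour share a level, as would show in a correlation between the major and the minor clone over the 20 tumours (plot of major against minor levels). None of the 9 members passed this test, where 5.32% of 16428 genes did (874, all with a positive r; permutation test of r with 100000 reassignments of minor clones among tumours of the same mouse, two-sided, adjusted over all genes). The median r of the members was 0.31, against 0.25 over all genes. At an unadjusted p under 0.05 lay 3 of the 9, and 23.4% of all genes.

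For Notum, r was -0.14 (permutation p = 0.577, adjusted p = 0.778) and Spearman's rho -0.28 (permutation p = 0.232). Within each mouse r was 0.004 in the female and -0.41 in the male. The clones of 1 tumour were a median of 1.66-fold apart in Notum, and clones of different tumours of the same mouse a median of 1.40-fold, after removal of class and mouse means. For Wif1, r was -0.17 (permutation p = 0.507, adjusted p = 0.729), rho was -0.20 (permutation p = 0.406), and r was -0.29 in the female and 0.02 in the male mouse. Both values lay below 0.

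The highest values were those of Dkk2, Sfrp1 and Dkk3. For Dkk2, r was 0.54 (permutation p = 0.0144, adjusted p = 0.112) and rho 0.44 (permutation p = 0.0579), with 0.67 in the female and 0.44 in the male mouse. Without the 2 tumours farthest from the median, r fell to 0.24, so that it rested on them. Its clones were a median of 1.72-fold apart within a tumour and 2.54-fold between tumours. In female tumour 19 Dkk2 was low in both clones (32.5 and 35.3), as it was in male tumour 25 (38.7 and 27.5).

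For Sfrp1, r was 0.51 (permutation p = 0.0307, adjusted p = 0.167), rho was 0.47 (permutation p = 0.0504), and r was 0.61 without the 2 farthest tumours. For Dkk3, r was 0.47 (permutation p = 0.0442, adjusted p = 0.202), rho was 0.46 (permutation p = 0.0472), and r was 0.17 without the 2 farthest tumours. In the moderated F test of the tumours within mice, an alternative by limma that called 15.5% of 16428 genes, Dkk2 (adjusted p = 0.0268) and Dkk3 (adjusted p = 0.0333) passed and the other 7 members did not. Whether Dkk2 and Dkk3 are called thus depends on the test.

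Nkd1, Znrf3, Rnf43 and Sfrp5 had r of 0.30, 0.31, 0.19 and 0.35, with adjusted permutation p of 0.474, 0.458, 0.685 and 0.470. Spearman's rho was 0.24, 0.21, 0.26 and 0.15, with permutation p of 0.316, 0.375, 0.274 and 0.545. Without the 2 farthest tumours, r was 0.17, 0.18, -0.19 and -0.05. For Sfrp5 the value rested on male tumour 19, the only heterotypic tumour with high Sfrp5 in both clones (793 and 1686). Other genes of the pathway came from 2 overlapping lists, 14 antagonists and feedback inhibitors and 25 WNT target genes, the latter with some of the members. Of these only Sox9 (r = 0.70, adjusted permutation p = 0.0310) and Kremen1 (r = 0.69, adjusted permutation p = 0.0258), a receptor for Dickkopf proteins, passed. Over all genes 5.32% did. Lgr5 had an r of 0.55 (permutation p = 0.0276, adjusted p = 0.158).

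**Figure D3:**
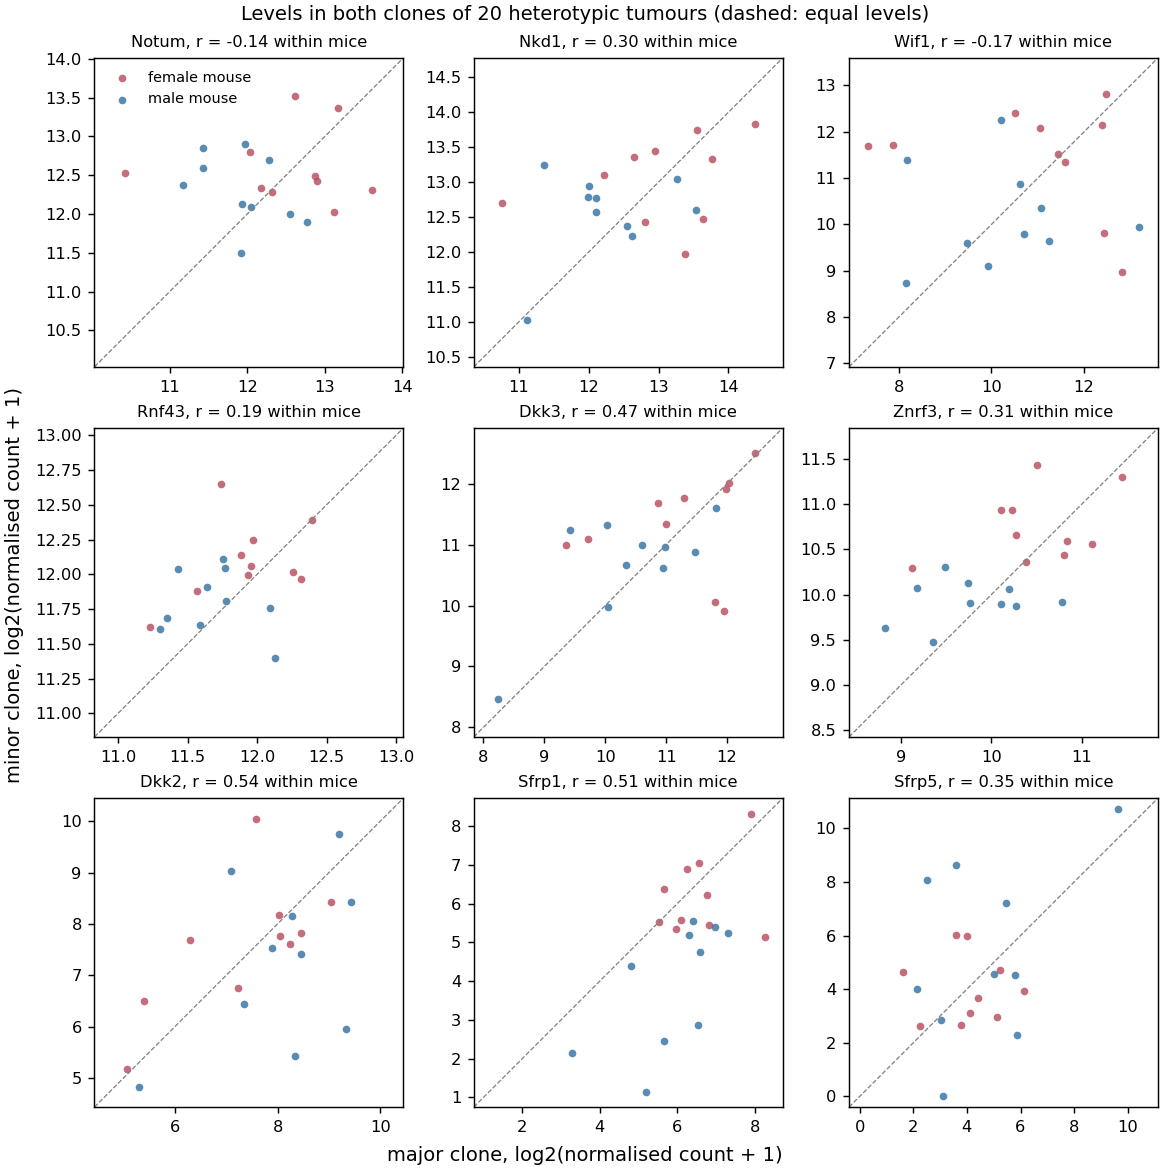
Level in the minor clone (y axis) against the major clone (x axis) of 20 heterotypic tumours, as log2 of the normalised count plus 1, 1 panel per gene, with r after centring within mouse and a dashed line at equal levels. Points of Notum (r = -0.14) and Wif1 (r = -0.17) do not follow the line, and Dkk2 has the highest r (0.54).

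Although no member passed the test for a shared level, several members moved with each other (plot of the members against Notum). Over the 23 undivided tumours, 4 of the 8 other members passed the test for a slope on the Notum level, all upwards, against 6.88% of 16510 genes (limma with mouse as a covariate). Nkd1 followed Notum most closely, with r = 0.93 (permutation p = 1e-05, the smallest that the permutations give, adjusted p = 2.2e-07 by limma) and rho = 0.91 (permutation p = 1e-05). Nkd1 rose by 1.31 ± 0.11 (SE) log2 units per log2 unit of Notum, and r was 0.94 in each mouse and 0.91 without the 2 tumours farthest from the median of Notum. In male tumour 2, the lowest for both, Notum was 1220 and Nkd1 861, and in female tumour 3, the highest for both, they were 14720 and 16974.

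Wif1 had the steepest slope, 2.37 ± 0.36 log2 units per unit of Notum (limma adjusted p = 0.000384, r = 0.81, permutation p = 2e-05, rho = 0.81, permutation p = 1e-05). It went from 64.5 in male tumour 4 to 9925 in female tumour 3. Dkk3 rose by 1.50 ± 0.21 (limma adjusted p = 0.000159, r = 0.83, permutation p = 1e-05, rho = 0.79, permutation p = 2e-05) and Znrf3 by 0.68 ± 0.11 (limma adjusted p = 0.000675, r = 0.80, permutation p = 2e-05, rho = 0.70, permutation p = 0.00032). Without the 2 farthest tumours, r was 0.82, 0.81 and 0.69 for Wif1, Dkk3 and Znrf3, and each was 0.79 or higher in both mice.

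Rnf43, Dkk2, Sfrp1 and Sfrp5 did not pass, with r of 0.37, 0.21, 0.28 and -0.24 (permutation p = 0.0890, 0.337, 0.204 and 0.280; adjusted p by limma 0.271, 0.579, 0.437 and 0.512). Their rho was 0.37, 0.25, 0.21 and -0.33, with permutation p of 0.0891, 0.249, 0.337 and 0.126. Of 14 other genes tested from a list of antagonists and feedback inhibitors, not all of them of WNT, 6 rose with Notum and 0 fell. The largest slopes were those of Grem1, a secreted BMP inhibitor, at 2.69 ± 0.77 and Trabd2b, an inhibitor of WNT ligands, at 1.88 ± 0.36. Of 24 WNT target genes tested, 12 rose and 0 fell. This list holds the members Wif1, Nkd1 and Znrf3, which are among the 12, and Rnf43. The largest slopes after Wif1 and Nkd1 were those of Prox1 at 1.26 ± 0.15 and Lgr5 at 1.18 ± 0.23. Fibroblast markers also lay upwards, with 7 of 7 slopes above 0 (median 0.92) and 1 called, Lum at 1.35 ± 0.39 (limma adjusted p = 0.0391), while epithelial markers had a median slope of 0.07 with 0 of 7 called. Their part in the slopes of the members was not tested.

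Between the 2 clones of a tumour, Nkd1, Wif1 and Dkk3 again followed Notum, and Znrf3 missed the threshold. Over 20 clone differences, 3 of the 8 other members passed for a slope on the Notum difference, all upwards, against 1.96% of 16427 genes (limma). Nkd1 changed by 0.89 ± 0.11 log2 units per unit of Notum (limma adjusted p = 0.000483, r = 0.88, permutation p = 1e-05, rho = 0.83, permutation p = 4e-05). In 14 of 20 tumours the Nkd1 and Notum differences lay on the same side of the means of their mouse. Wif1 changed by 1.99 ± 0.30 (limma adjusted p = 0.00177, r = 0.82, permutation p = 3e-05, rho = 0.76, permutation p = 0.00027) and Dkk3 by 0.81 ± 0.16 (limma adjusted p = 0.0117, r = 0.75, permutation p = 0.0003, rho = 0.68, permutation p = 0.00159). Without the 2 tumours farthest in Notum, female 22 and female 30, r was 0.82 for Nkd1, 0.74 for Wif1 and 0.67 for Dkk3. All 3 were lower in the male than in the female mouse. In the female r was 0.91, 0.90 and 0.88 for Nkd1, Wif1 and Dkk3, and in the male 0.84, 0.69 and 0.51.

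For Znrf3 the slope was 0.41 ± 0.11 (limma adjusted p = 0.0650, r = 0.64, permutation p = 0.00358, rho = 0.62, permutation p = 0.00587). Its r was 0.79 in the female and 0.44 in the male mouse. The slope passed with libraries scaled to equal sums (adjusted p = 0.0184), with quantile normalization (adjusted p = 0.0449), and when female tumour 26, male tumour 19 or male tumour 22 was left out (adjusted p = 0.0207 to 0.0447). Dkk2, Rnf43, Sfrp1 and Sfrp5 had r of 0.08, 0.23, 0.16 and -0.22, with permutation p of 0.735, 0.330, 0.499 and 0.335 and adjusted p by limma of 0.902, 0.661, 0.782 and 0.667. Their rho was 0.21, 0.20, 0.09 and -0.32, with permutation p of 0.383, 0.402, 0.695 and 0.173. Of the 14 other antagonists and feedback inhibitors, 3 rose with Notum, and these were Trabd2b (1.17 ± 0.28), Apcdd1 (0.77 ± 0.17) and Tnfrsf19 (0.77 ± 0.11). Of 24 WNT target genes tested, a list that holds Nkd1 and Wif1, 6 rose and 0 fell. Of 7 fibroblast markers 0 were called here, with a median slope of 0.46.

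**Figure D4:**
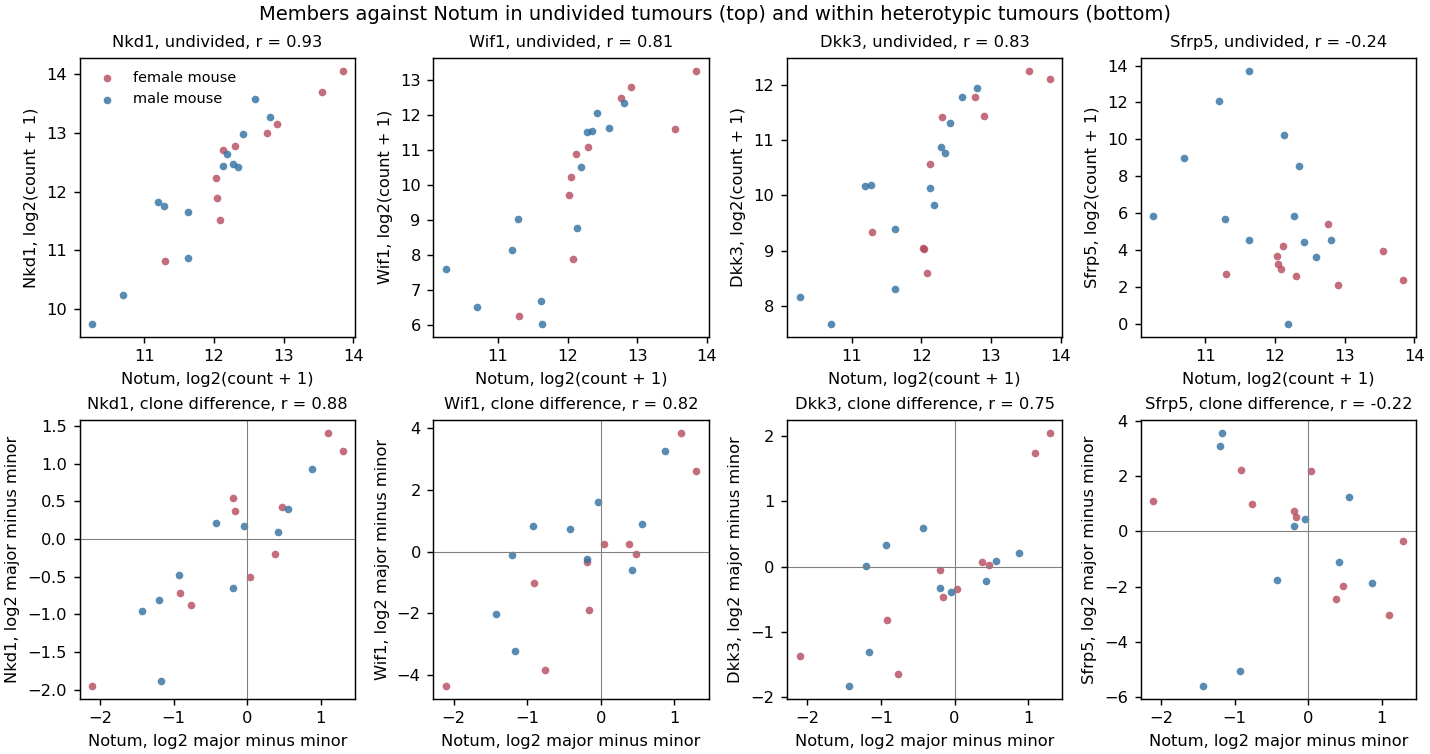
Nkd1, Wif1, Dkk3 and Sfrp5 (y axes) against Notum (x axes), as log2 levels in 23 undivided tumours (top) and as log2 major minus minor differences in 20 heterotypic tumours (bottom), 1 point per tumour coloured by mouse. Nkd1 follows Notum in both settings (r = 0.93 and 0.88), and Sfrp5 does not (r = -0.24 and -0.22).

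Described over all 36 pairs of members, the 10 pairs among Notum, Nkd1, Wif1, Dkk3 and Znrf3 had r of 0.60 to 0.93 in undivided tumours (median 0.82) and of 0.64 to 0.88 in clone differences (median 0.78). These 5 genes were grouped after their values had been seen, and the grouping was not tested. The other 26 pairs had a median r of 0.21 in undivided tumours and 0.06 in clone differences. Outside the group, Znrf3 and its close relative Rnf43 went together in both (r = 0.74 and 0.69), and Rnf43 and Sfrp5 in undivided tumours (r = 0.62) but with an r of 0.08 in clone differences. Rnf43 and Sfrp1 had an r of 0.55 in clone differences and 0.05 in undivided tumours. The 5 genes were all higher in the major clone in 3 tumours, all higher in the minor clone in 5, and mixed in 12.

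In female tumour 22, for example, the minor clone was the higher one for Notum (4.31-fold), Wif1 (20.6-fold), Nkd1 (6671 against 1727), Dkk3 (2179 against 841) and Znrf3 (1258 against 555). Its clones carry different segment labels, SI20 for the major and SI10 for the minor clone. In female tumour 28 the major clone was the higher one for all 5, with Notum at 8914 against 4173 and Nkd1 at 10664 against 4011. In male tumour 29 the major clone was also higher for all 5, with Wif1 at 9355 against 980. The group thus went either way.

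**Figure D5:**
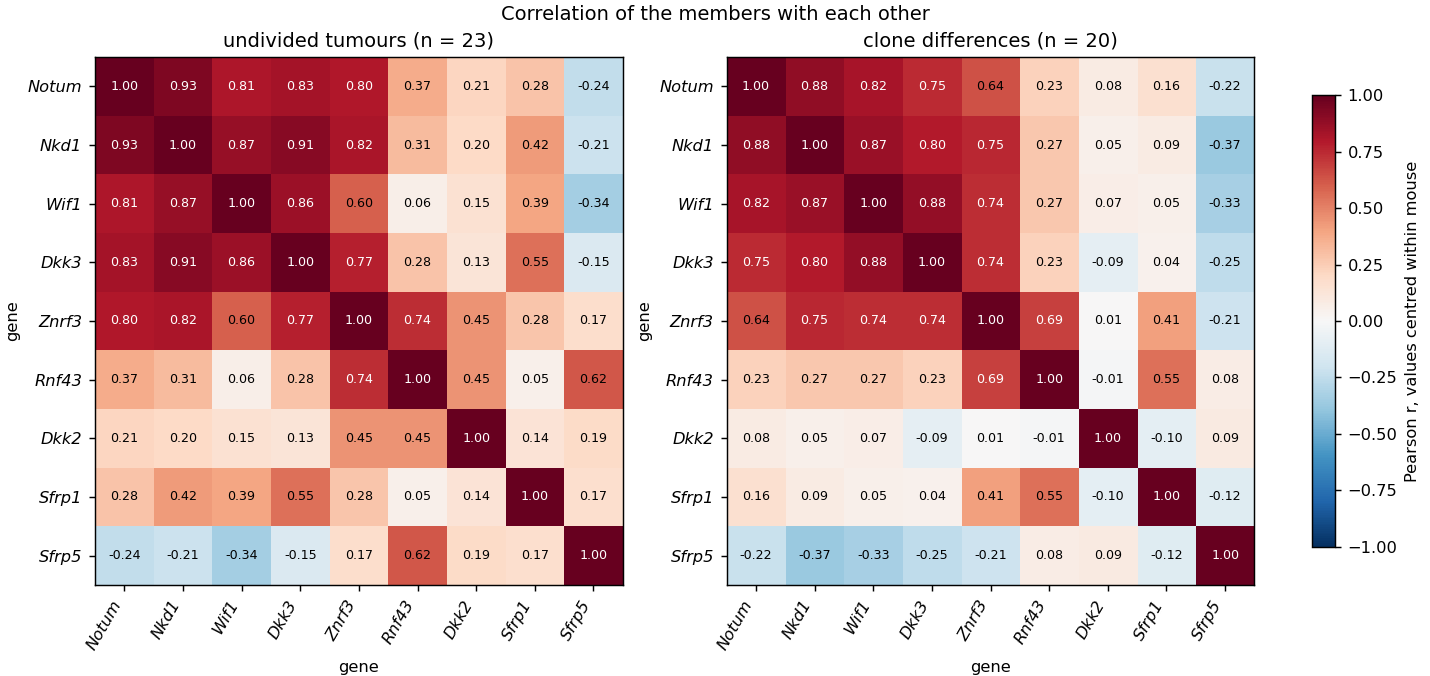
Pearson r between each pair of the 9 genes (rows and columns), from red (1) to blue (-1), over 23 undivided tumours and over 20 clone differences, with log2 values centred within mouse. The 10 pairs among Notum, Nkd1, Wif1, Dkk3 and Znrf3 are 0.60 or higher in both panels, and Dkk2, Sfrp1 and Sfrp5 stand mostly apart.

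The genes closest to each member over all 63 libraries, centred within mouse and group, are given as a description, out of 16489 genes. Those of Notum were Notumos (r = 0.87), Nkd1 (0.87) and Rbm11 (0.81). Nkd1 was likewise closest to Notumos (0.89), Amotl1 (0.88) and Dkk3 (0.88). Wif1 was closest to Rbm11, Pycr1 and Spock2 (0.90, 0.89 and 0.88), Dkk3 to Scara3, Sbspon and Olfml2a (0.90 each), and Znrf3 to Fam222a, Cbx6 and Lef1 (0.89, 0.88 and 0.86), the last a partner of beta-catenin. Rnf43 was closest to Zc3h7b, Rnf150 and Zfp146 (0.86, 0.83 and 0.83). Dkk2 had weaker partners, with Itpkb, Neto2 and Shroom4 at 0.69, 0.67 and 0.66. Sfrp5 was closest to Dact1 (0.83), which codes for a protein that binds Dishevelled, followed by Cplx2 (0.80) and Btbd2 (0.79).

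Lgr5, a WNT target that marks crypt stem cells, was set beside the inhibitors to ask whether they follow it. Over undivided tumours 5 of the 9 members rose with Lgr5, against 2.13% of 16510 genes called (limma). These were Wif1 with a slope of 1.50 ± 0.21 (adjusted p = 0.000691), Dkk3 with 0.88 ± 0.14 (adjusted p = 0.00197), Nkd1 with 0.72 ± 0.10 (adjusted p = 0.000657), Notum with 0.45 ± 0.09 (adjusted p = 0.0102) and Znrf3 with 0.36 ± 0.08 (adjusted p = 0.0202). Their r was 0.83, 0.79, 0.84, 0.72 and 0.69 (permutation p = 2e-05, 1e-05, 1e-05, 0.00012 and 0.00031) and their rho 0.79, 0.79, 0.81, 0.68 and 0.67 (permutation p = 2e-05, 2e-05, 2e-05, 0.00071 and 0.001). Without the 2 tumours farthest in Lgr5, r was 0.79, 0.77, 0.78, 0.66 and 0.66. Znrf3 missed the threshold without male tumour 5 (adjusted p = 0.0515). In neither mouse alone did a member pass, where 0 of 16354 genes in the female and 2 of 16471 in the male mouse were called in place of 352, while each of the 5 slopes kept its direction in both (adjusted p = 0.0511 to 0.617 by limma). Of 24 WNT target genes tested, 11 rose with Lgr5 and 0 fell, among them Wif1, Nkd1, Notum and Znrf3. Fibroblast markers had 7 of 7 slopes above 0 (median 0.57) with 1 called, and epithelial markers 4 of 7 (median 0.01) with 0 called. Their part in the slopes of the members was not tested.

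Between the clones of a tumour no member passed for a slope on the Lgr5 difference, against 0.244% of 16427 genes called (limma), and 7 of 9 had an unadjusted p under 0.05, as had 18% of all genes. The slopes were 0.55 ± 0.14 for Znrf3 (adjusted p = 0.0725), 0.30 ± 0.09 for Rnf43 (adjusted p = 0.113), 0.69 ± 0.23 for Notum (adjusted p = 0.127) and 0.93 ± 0.31 for Sfrp1 (adjusted p = 0.129). For Notum, r was 0.55 (permutation p = 0.0121) and rho 0.55 (permutation p = 0.0158), with r of 0.63 in the female and 0.49 in the male mouse and 0.46 without the 2 farthest tumours. With libraries scaled to equal sums, Znrf3, Rnf43 and Notum passed (adjusted p = 0.0160 to 0.0416). Axin2, a feedback inhibitor inside the cell, and Prox1 were the listed pathway genes that passed as deposited, with slopes of 0.39 ± 0.08 and 0.62 ± 0.13 (limma adjusted p = 0.0474 for both). Of 7 fibroblast markers 1 was called, with a median slope of 0.91, and their part in the slopes was not tested.

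Undivided tumours were compared with each class of clone next, and the 2 comparisons share the undivided tumours. Against major clones no member passed, where 0.0121% of 16510 genes (2) were called (limma with mouse as a covariate), and no member had an unadjusted p under 0.05, against 12% of all genes. Against minor clones no member passed either, where 3.7% of 16491 genes (610) were called, and 2 members had an unadjusted p under 0.05, against 19.6% of all genes. Notum was 1220 to 14720 in undivided tumours (median 4482), a range that took in those of both classes of clone, with log2 differences of -0.09 ± 0.22 (SE) from major and -0.32 ± 0.19 from minor clones (adjusted p = 0.880 and 0.367).

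The lowest levels of several members were found in undivided tumours. Wif1 went down to 64.5 there, against 159 in major and 427 in minor clones, and the log2 differences were -0.62 ± 0.59 and -0.78 ± 0.53 (limma adjusted p = 0.667 and 0.441). For Dkk3, with 203 to 4905 (median 1163), they were -0.51 ± 0.36 and -0.70 ± 0.34 (adjusted p = 0.556 and 0.252). For Znrf3, with 236 to 2414 (median 1041), they were -0.16 ± 0.19 and -0.37 ± 0.16 (adjusted p = 0.723 and 0.164). The members' median log2 difference was -0.35 from major and -0.32 from minor clones, against -0.01 over all genes in each.

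Sfrp1 in undivided tumours was 2.37 to 209 (median 52.6), between the medians of the clones, with log2 differences of -0.77 ± 0.39 from major and 0.47 ± 0.46 from minor clones (limma adjusted p = 0.424 and 0.631). Nkd1 had log2 differences of -0.35 ± 0.29 and -0.52 ± 0.26 (adjusted p = 0.618 and 0.266), and Rnf43, with 1717 to 6108 (median 3756), of -0.03 ± 0.12 and -0.17 ± 0.11 (adjusted p = 0.937 and 0.422). Dkk2, with 15.5 to 1576 (median 136), had -0.53 ± 0.45 and -0.24 ± 0.47 (adjusted p = 0.630 and 0.842).

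Sfrp5 reached 13489 in male undivided tumour 15, 4407 in tumour 18 and 1193 in tumour 17, and the minor clone of male tumour 19, at 1686, lay between the last 2. Among the other undivided male tumours it was 0 to 517, and in the 10 undivided female tumours 3.27 to 42.4 (median 7.57). In clones it exceeded 100 only in male tumours, in both clones of tumour 19 and in the minor clones of tumours 20, 22 and 27. The log2 differences of undivided tumours were 0.82 ± 0.76 from major and 0.46 ± 0.82 from minor clones (limma adjusted p = 0.657 and 0.819). Without undivided tumours 15, 17 and 18 they were -0.06 and -0.40 (adjusted p = 0.978 and 0.773), so the direction rests on these 3 tumours. Mouse and sex coincide, and the levels of the 2 mice were not tested against each other.

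Between segments, no member passed in undivided tumours (11 SI20 against 12 SI10), where 0.17% of 16511 genes were called (28, limma with mouse as a covariate), or in heterotypic tumours, where 0.28% of 16436 genes were called (46, limma on the mean of both clones, 10 SI20 against 7 SI10). Sfrp5 had the largest differences, lower in SI20 by -2.13 ± 1.08 (SE) log2 units in undivided tumours (adjusted p = 0.667) and by -2.10 ± 0.72 in heterotypic tumours (unadjusted p = 0.00928, adjusted p = 0.242). In undivided male tumours it was 22.6 to 13489 in SI10 (median 379) and 0 to 4407 in SI20 (median 21.6). In heterotypic tumours it was 30.5 to 1156 in SI10 (median 34.8) and 1.92 to 79.2 in SI20 (median 15.5), which overlap. Znrf3 was 601 to 1682 in SI10 and 914 to 2651 in SI20, a log2 difference of 0.40 ± 0.13 (unadjusted p = 0.00689, adjusted p = 0.228). Nkd1 and Dkk3 had 0.47 ± 0.23 and 0.66 ± 0.32 (adjusted p = 0.357 and 0.359).

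In undivided tumours the medians of the segments were ordered in opposite ways in the 2 mice for Notum, Wif1, Dkk3, Nkd1, Znrf3 and Sfrp1, and in the same way for Rnf43, Sfrp5 and Dkk2. In the female mouse Notum was 4171, 4221, 6964, 11968 and 14720 in SI10 and 2517, 4335, 4463, 5031 and 7676 in SI20. In the male mouse it was 1220 to 5210 in SI10 (7 tumours, median 3158) and 2345 to 7143 in SI20 (6 tumours, median 5223). Wif1 had medians of 3123 in SI10 and 1904 in SI20 in the female, and of 195 in SI10 and 3062 in SI20 in the male mouse. A test of this difference, added after these values had been seen, called no gene (0% of 16511, 870 at an unadjusted p under 0.05, by limma). Nkd1, Wif1, Notum and Dkk3 had log2 estimates of 2.269 ± 0.711, 4.68 ± 1.51, 1.53 ± 0.54 and 2.34 ± 0.97 for male minus female, with unadjusted p of 0.00414, 0.00503, 0.00999 and 0.0253 and adjusted p of 0.829, 0.829, 0.829 and 0.856. Lgr5 lay in the same order, with medians of 675 in SI10 and 524 in SI20 in the female and of 212 and 1184 in the male mouse. So did markers of other cells, none of them called. Estimates above 0 were 7 of 7 for fibroblasts (median 1.91), 5 of 5 for smooth muscle (1.76) and 5 of 5 for immune cells (1.35). Of 25 WNT target genes, some of them members, 21 lay above 0 (median 0.82), and of 14 other antagonists and feedback inhibitors 12 (0.71). Paneth cell markers had 4 of 4 above 0 (1.10), endothelial markers 4 of 4 (1.08) and crypt stem cell markers 3 of 4 (0.60). Above 0 were 4 of 7 markers for epithelium (0.04), 0 of 4 for goblet cells and 0 of 3 for enteroendocrine cells. The part of these cells was not tested.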

How the data were processed

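Bulk RNA sequencing of 63 libraries was analysed. The authors estimated counts per gene with Salmon on GRCm39 (version 1.9.0 in the submitters' processing notes) from reads of a stranded mRNA kit, and deposited them normalised between libraries. The authors thus deposited a signal per gene and not whole counts, and no step of the values gave back reads. The study names DESeq2, and the exact scaling is not given in the sources used here. Depth per value is therefore unknown, and errors come from how tumours differ. The class of each clone came from the source data of the paper, matched by sample name.

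Genes whose mean reached 10 in a comparison were tested on log2(value + 1) with limma 3.58.1 in R 4.3.3 (eBayes with trend), with Benjamini-Hochberg adjustment over all genes and a threshold of 0.05. Clones were paired by tumour, as the number marks clones of the same tumour, and mouse was a covariate elsewhere. On this scale a fold of a low gene is understated. The level shared by clones was tested by 100000 permutations of Pearson's r (Python 3.11.15, numba 0.67.0). The tests were first tried on simulated data. Gene positions and lengths came from Gencode M39 on GRCm39. Named genes are the 9 members, Lgr5, called genes of 2 lists of WNT genes (at most 4 each way, with all counts) and the 3 genes most correlated with each member. Genes singled out beyond this rule were chosen after their values were seen. The members, lists and tests were chosen with earlier results of these data known. Alternatives covered the pseudocount (0.1 and 5), the filter, scaling, trend, block, covariates, each mouse alone and each tumour left out. Not every alternative was run for every comparison. Each mouse alone was not run for slopes on Notum, for segments in heterotypic tumours or for the clone difference between segments.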

Additional observations from a re-analysis of the deposited data

Results flagged for a closer look

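In groups of 4 to 10 tumours, 7 values of the members stood apart from the rest of their group by Dixon's test on the log2 scale. Of 63 groups tested, chance alone flags about 1 in 20. Notum was 1377 in the major clone of female tumour 22, with the next lowest female major clone at 4188. Dkk3 was 351 and Nkd1 was 2088 in the minor clone of male tumour 19, with the next lowest male minor clones at 1003 and 4788. Sfrp5 was 793 in the major clone of the same tumour, with the next highest male major clone at 57.6, and over both of its clones 1156, with the next highest SI10 tumour at 68.8. Over both clones Dkk2 was 32.6 in male tumour 25, with the next lowest SI20 tumour at 117. Sfrp1 was 2.37 in female undivided tumour 1, with the next lowest female undivided tumour at 20.3.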

How the results depend on the processing

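The number of members called for major against minor clones rose from 0 to 1, Sfrp1, with a pseudocount of 5, a minimum mean of 50, libraries scaled to equal sums or quantile normalization, and was 0 or 1 when 1 tumour was left out (1 in 6 of 20 cases). Without the tumour block the number was 0, and 1 gene in place of 188 was called. The other comparisons that rest on pairs of clones were not run without the pairing. The number rising with Lgr5 in undivided tumours fell from 5 to 0 in the female mouse alone and to 0 in the male mouse alone, where 0 and 2 of all genes were called in place of 352, and was 4 or 5 with 1 tumour left out. For clone differences on Lgr5 it rose from 0 to 3 with libraries scaled to equal sums. For slopes on Notum it was 5 in place of 4 over undivided tumours and 4 in place of 3 over clone differences with equal sums, and 3 or 4 over clone differences with 1 tumour left out. Slopes on Notum were not tested in each mouse alone. For shared levels the number rose from 0 to 2 in the moderated F test, and was 0 in each other alternative run. The cause of these changes was not tested. Several estimates that were not called changed sign in 1 mouse alone, among them the segment difference of Notum in undivided tumours (-0.70 in the female mouse).

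With undivided tumours numbered 1 to 10 only, chosen after the values had been seen, the members called were 5 for Lgr5, 4 for Notum and 0 in the other comparisons of undivided tumours, as with all 23, while all genes called became 921, 2074 and, between segments, 0.

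Counts over all genes moved more. For major against minor clones 188 genes became 85 with no filter, 89 with no trend, 292 with equal sums, 366 with quantile normalization, 0 in the female and 33 in the male mouse, and 25 (without male 20) to 859 (without female 19) with 1 tumour left out. For undivided against minor clones 610 became 367 with segment as a covariate, 325 in SI10 and SI20 alone, 0 in the female mouse, and 274 (without male minor 26) to 959 (without female minor 19) with 1 library left out. Against major clones 2 became 0 to 2 under the other settings and 0 to 25 (without male undivided 7) with 1 library left out. For Lgr5 slopes 352 became 1260 with equal sums, 206 with quantile normalization and 102 (without male 7) to 742 (without male 3) with 1 tumour left out. Over clone differences 40 became 861 with equal sums, 11 with quantile normalization, 3 with no filter, 7 with no trend, 0 in either mouse and 0 (without male 29) to 83 (without female 30) with 1 tumour left out. For Notum slopes 1136 became 3090 with equal sums, 719 with quantile normalization and 530 (without male 2) to 1584 (without male 8) with 1 tumour left out. Over clone differences 322 became 742 with equal sums and 126 (without female 28) to 404 (without female 26) with 1 tumour left out. For shared levels 874 became 359 with ranks, 0 in the female and 103 in the male mouse, 2552 in the F test, and 113 (without male 19) to 1052 (without female 26) with 1 tumour left out. In the 17 tumours of SI10 and SI20 it was 501, an alternative added after the values had been seen, and 0 when these were also centred within segment. For segments 28 became 18 with a pseudocount of 0.1, 0 in the female and 46 in the male mouse, and 5 to 53 with 1 undivided tumour left out, and 46 became 13 (without female 19) to 215 (without female 23) in heterotypic tumours. The number of reads is unknown, so the counting error of the low values of Sfrp1 and Sfrp5 could not be given.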
